A study of Mus musculus with 48 samples.

Results

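Nkx2-1, Foxa1 and Foxa2 encode transcription factors of the lung endoderm, and the chromatin around them was described at 126 merged ATAC-seq peaks out of 114043 in the series. Members were chosen by position: every peak of the authors' merged list whose centre lay in 1 of 3 windows of mouse build mm9. The Nkx2-1 window, on chromosome 12 from 57.45 to 57.8 Mb, held 36 peaks. The Foxa1 window, on chromosome 12 from 58.5 to 58.8 Mb, held 46, and the Foxa2 window, on chromosome 2 from 147.7 to 148.05 Mb, held 44. ATAC-seq marks open DNA by letting the Tn5 transposase insert adapters where chromatin is accessible. Each merged peak is 501 bp long, so it is named here by its centre and reaches 250 bp to either side.

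The samples were mouse small cell lung tumors and their metastases, all of genotype Trp53-/-;Rb1-/-;p130-/-;R26mG, in which adenoviral Cre had started the tumor. In Ad-CMV-Cre animals the virus can act in many lung cell types, and in Ad-CGRP-Cre animals the CGRP promoter directs Cre to neuroendocrine cells. The first comparison set 8 Nfib-amplified Ad-CMV-Cre libraries (5 liver metastases, 1 lymph node metastasis and 2 lung tumors) against 7 Ad-CMV-Cre lung tumor libraries without the amplification. The second set 7 Ad-CGRP-Cre liver metastasis libraries against 11 Ad-CGRP-Cre lung tumor libraries, 1 of them Nfib-amplified. A further 15 Ad-CMV-Cre libraries were marked low in enrichment and entered neither comparison, though they are part of a summit pool, and the labels used here give no ages. Nfib encodes nuclear factor I/B, a transcription factor whose gene is amplified in a share of these tumors. Some titles share a code or end in A or B, so libraries may come from the same animal or tumor, and the p-values then cover a spread among libraries that may be technical.

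Nkx2-1, also called TTF-1, is a homeodomain factor that sets lung and thyroid identity and is widely used as a marker of lung origin in tumors. Foxa1 and Foxa2 are forkhead factors that can bind closed nucleosomal DNA, and they act with Nkx2-1 on genes of the lung epithelium. Both Foxa genes also work in liver, where they take part in specifying hepatocytes, so an open Foxa locus is not by itself a lung feature. The question put to the data was whether sites around these genes closed with amplification or in liver metastases. The deposited tables hold fitted values over libraries and no value per library, so a lower value may mean fewer cells with the site open or a less open site in each cell, which cannot be told apart.

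The promoters of the 3 genes are shown as the fixed points of the loci, 250 bases upstream of the transcription start from RefSeq on build GRCm38.p6, 5′ to 3′ on the gene's own strand, which is the minus strand for each. They lie at chr12:56536909-56537158 for Nkx2-1, chr12:57546112-57546361 for Foxa1 and chr2:148045465-148045714 for the most downstream of the 3 Foxa2 starts, chosen because it was the Foxa2 start with motif matches. Capitals mark matches on either strand to a forkhead core (TGTTTAC), an NKX2-1 core (CTCAAG) or an NFI core (TTGGCA).
Nkx2-1: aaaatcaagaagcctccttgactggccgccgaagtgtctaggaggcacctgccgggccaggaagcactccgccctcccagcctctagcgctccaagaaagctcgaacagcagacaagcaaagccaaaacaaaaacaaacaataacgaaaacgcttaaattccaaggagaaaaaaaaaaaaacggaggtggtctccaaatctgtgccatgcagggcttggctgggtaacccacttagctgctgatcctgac
Foxa1: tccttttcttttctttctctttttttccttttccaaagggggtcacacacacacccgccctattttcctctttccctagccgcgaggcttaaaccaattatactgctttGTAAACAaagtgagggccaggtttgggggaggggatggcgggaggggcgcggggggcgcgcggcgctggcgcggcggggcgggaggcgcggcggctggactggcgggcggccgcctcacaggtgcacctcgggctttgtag
Foxa2: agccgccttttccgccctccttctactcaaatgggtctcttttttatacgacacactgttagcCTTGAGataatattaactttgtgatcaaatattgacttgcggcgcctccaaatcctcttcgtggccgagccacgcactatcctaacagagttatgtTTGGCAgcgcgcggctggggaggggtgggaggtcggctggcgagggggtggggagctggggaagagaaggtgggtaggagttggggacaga
The Foxa1 promoter held 1 forkhead core, which 3.17% of 32851 promoters of the same length hold. The printed Foxa2 promoter held 1 NKX2-1 core and 1 NFI core, and the promoters of the other 2 Foxa2 starts held none. Of all promoters, 13.3% and 12.3% hold these cores, but this start was chosen for its matches, so nothing is read from those shares. The Nkx2-1 promoter held none of these motifs. None held the full NFI palindrome, which 12 promoters hold, and none of the searched motifs overlapped another in the printed letters. G and C made up 50.8% of the Nkx2-1 letters, 62.0% of the Foxa1 letters and 54.4% of the Foxa2 letters, against a median of 52.4% over all promoters. The peaks are on mm9 and these promoters on another build, so no peak was placed on a promoter. In RefSeq's gene order, Nkx2-1 stands between Mbip and Nkx2-9, Foxa1 between Mipol1 and Ttc6, and Foxa2 between Pax1 and Sstr4, and a window may also hold sites of such neighbors.

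In Nfib-amplified CMV tumors, the Nkx2-1 window was mainly more open, with most gains toward its ends. The Foxa1 window had raised peaks in a share near that of all peaks, and the Foxa2 window held both gains and losses. In the Nkx2-1 window, 19 of 36 peaks (52.8%) were raised and 1 (2.78%) was lowered in the authors' deposited table, with a call meaning an adjusted p under 0.05; there, 34.3% of all tested peaks were raised and 12.2% lowered. The Foxa1 window had 18 of 46 peaks raised (39.1%) and 2 lowered (4.35%). In the Foxa2 window, 9 of 44 peaks were raised (20.5%) and 6 lowered (13.6%). The raised share of Foxa1 and the lowered share of Foxa2 were thus close to the background, and neither is a result about those genes.

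Changes are log2 fold changes, given as the value ± 1 SE of the authors' fit. Median changes, amplified over not amplified, were 1.13 (quartiles 0.40 and 1.83) in the Nkx2-1 window, 0.59 (-0.05 and 1.16) in the Foxa1 window and -0.14 (-0.61 and 0.52) in the Foxa2 window, in the authors' deposited table. The median over all peaks was 0.60, so on the authors' scaling values were above 0 at most peaks, and the Foxa1 median lay at that of all peaks. Of the members, 23 of 36 Nkx2-1 peaks lay above the median of all peaks, as did 22 of 46 Foxa1 peaks and 11 of 44 Foxa2 peaks. With every peak centred on that median, 16 Nkx2-1 peaks were raised and 2 lowered, 6 Foxa1 peaks were raised and 10 lowered, and 5 Foxa2 peaks were raised and 21 lowered, where 19.9% of all peaks were raised and 25.5% lowered. Thus the balance of raised and lowered calls turned with the scaling for Foxa1 and Foxa2, as it did for all peaks. That of Nkx2-1 was the same in both. On both scalings, the Foxa2 window had a smaller raised share than all peaks and a median below theirs.

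**Figure D1:**
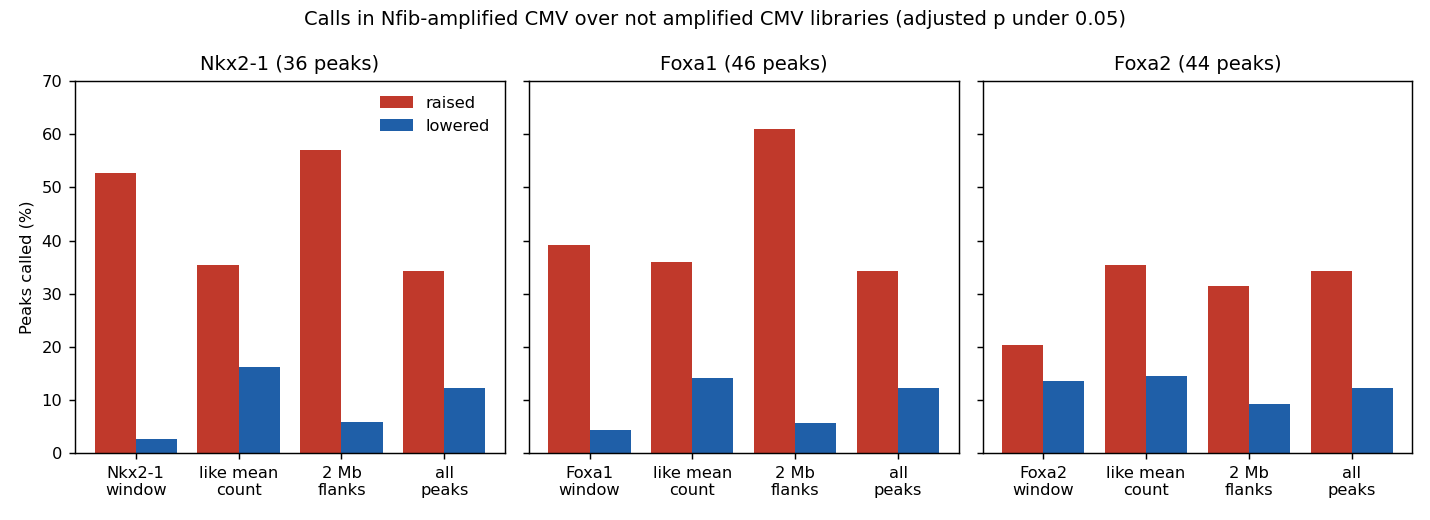
Share of peaks called raised or lowered (percent, vertical axis) in Nfib-amplified over not amplified CMV libraries, for each window, for other peaks of like mean count, for peaks within 2 Mb of the window and for all peaks. The Nkx2-1 window had 52.8% raised peaks, close to the 57.0% of its surroundings, and the Foxa2 window had 20.5%, below its surroundings.

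Surroundings and signal strength were set beside these shares. Members were stronger than most peaks, with a median mean normalised count of 41.9 in the Nkx2-1 window, 26.4 in the Foxa1 window and 34.3 in the Foxa2 window, against 21.2 over all peaks. Other peaks of the same deciles of mean count had 35.4% raised and 16.2% lowered for the Nkx2-1 set, 36.0% and 14.1% for the Foxa1 set, and 35.4% and 14.6% for the Foxa2 set. Peaks within 2 Mb outside the Nkx2-1 window, which take in the Foxa1 window, had 57.0% raised, 5.84% lowered and a median of 1.20. The Foxa1 surroundings, which take in the Nkx2-1 window, had 60.9% raised, 5.75% lowered and a median of 1.44, above the window itself. The Foxa2 surroundings had 31.5% raised, 9.36% lowered and a median of 0.51. The openness of the Nkx2-1 window was thus shared by its part of chromosome 12, while both Foxa windows lay below their surroundings. These are descriptions with no test, since neighboring peaks are not independent.

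**Figure D2:**
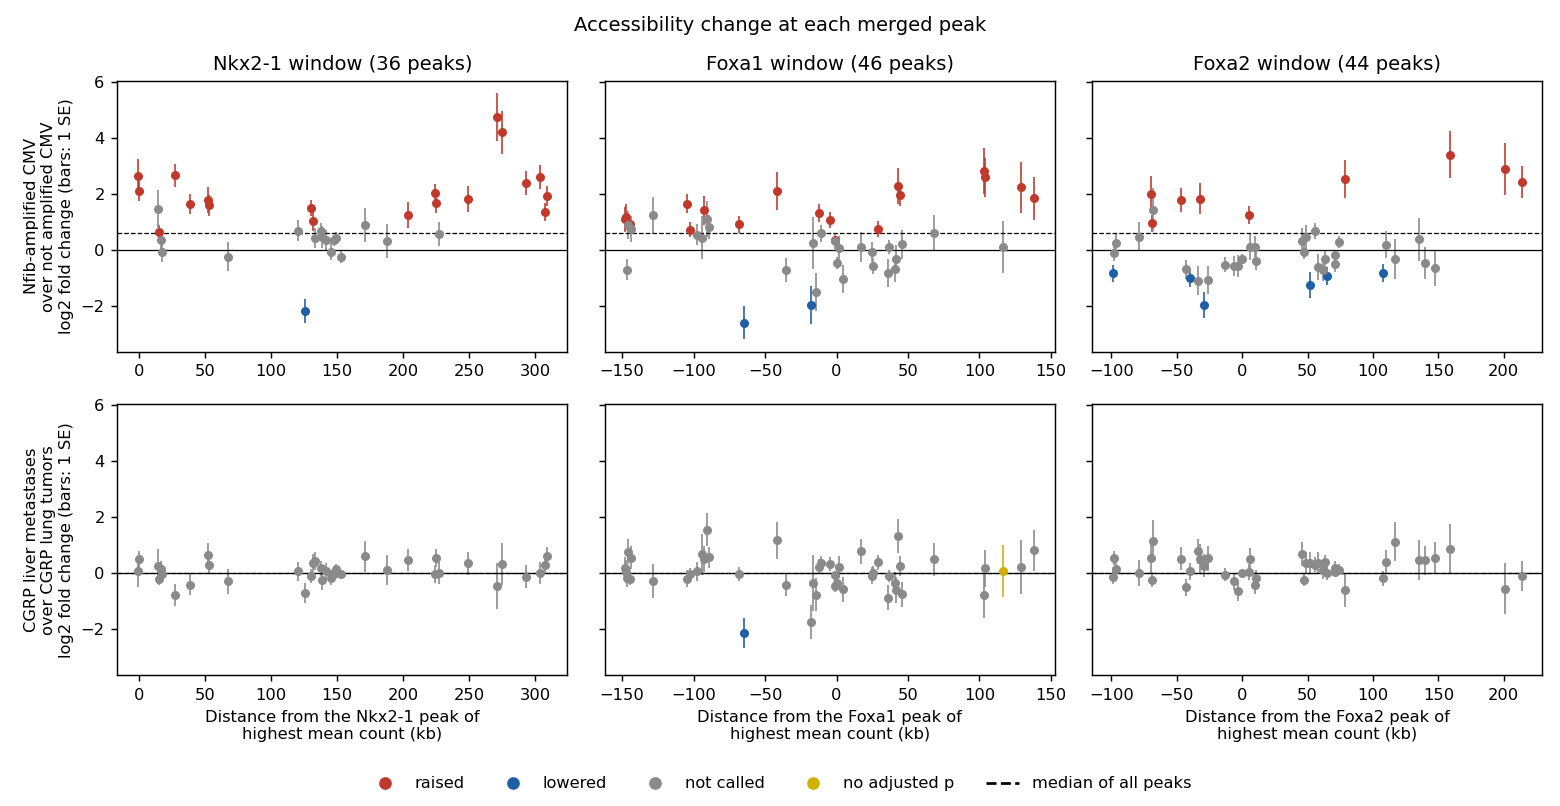
Log2 fold change of each merged peak (vertical axis, bars 1 SE) by its distance in kb from the peak of highest mean count in its window, for Nfib-amplified over not amplified CMV (top row) and CGRP liver metastases over CGRP lung tumors (bottom row). Raised peaks fill both ends of the Nkx2-1 window in the top row, and the single called peak of the bottom row is the lowered Foxa1 peak.

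In the Nkx2-1 window the gains lay toward the ends. The middle 175 kb held 5 raised peaks among 18 at a median of 0.45 in the authors' deposited table. The outer stretches held 14 among 18 at a median of 1.86. Of all tested peaks 34.3% were raised, and the median over all peaks was 0.60, so the middle showed no gain beyond the background. The longest run of raised peaks counted 7 neighbors over 59.8 kb, centred from 57738001 to 57797823. Its strongest members were the neighbors at 57760357 (chromosome 12 from 57760107 to 57760607), where the fitted change was 4.74 ± 0.85 (adjusted p = 7.87e-07), and at 57763980, with 4.19 ± 0.77 (adjusted p = 1.42e-06), from the authors' deposited table. These are differences of 26.7-fold and 18.2-fold on the fitted scale. The authors' deposited table gave 2.60 ± 0.44 at 57792523 and 2.39 ± 0.41 at 57782275, both also raised.

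At the other end of the Nkx2-1 window, a peak at 57516192 rose by 2.66 ± 0.41 (adjusted p = 1.5e-08) in the authors' deposited table, and a weak peak at 57488207, with a mean count of 15.5, rose by 2.62 ± 0.61. The strongest site of the window by mean count, 174 at 57489049, rose by 2.10 ± 0.34 (adjusted p = 6.21e-08) in the authors' deposited table. The second strongest, at 57796562 with a mean count of 137, rose by 1.36 ± 0.32 (adjusted p = 0.000175). The third, at 57637012 with a mean count of 119, had 0.34 ± 0.20 (adjusted p = 0.14) in the authors' deposited table and was not called.

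That last peak belongs to the group with the most peaks in the window, 12 peaks over 32.5 kb from 57609657 to 57642203, joined where neighboring centres lay within a set gap, between 5 and 25 kb. This group had a median log2 fold change of 0.43 in the authors' deposited table, with 2 peaks raised and 1 lowered. The lowered peak, at 57614995, was the only loss called in the window, at -2.18 ± 0.44 (adjusted p = 1.02e-05) in the authors' deposited table. It lay 4.46 kb from a raised peak at 57619455, which was 2.83-fold higher (adjusted p = 5.41e-06).

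The Foxa1 window divided in a similar way. In its middle 150 kb, 8 of 27 peaks were raised and 2 lowered, the median being 0.11 in the authors' deposited table. In the outer stretches 10 of 19 were raised and 0 lowered, and the median was 1.09. Of all tested peaks, 34.3% were raised and 12.2% lowered, and the median over all peaks was 0.60. The largest Foxa1 group, 22 peaks over 63.7 kb from 58629916 to 58693598, had a median of 0.10, with 6 raised and 1 lowered. That group held the pair of highest mean count in the window. At 58647854, with a mean count of 201, the log2 fold change was -0.47 ± 0.21 (adjusted p = 0.0557) in the authors' deposited table. With peaks centred on the median of all peaks, that site was lowered (z test, adjusted p = 5.5e-06). At 58647016, with a mean count of 190, the log2 fold change was 0.34 ± 0.15 (adjusted p = 0.0462), a call whose sign turns to -0.27 on centring. The third strongest site lay outside that group, at 58579619. With a mean count of 129, it rose by 0.91 ± 0.30 (adjusted p = 0.00769) in the authors' deposited table.

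Gains at other Foxa1 sites were larger. In the authors' deposited table, 58751216 rose by 2.81 ± 0.83 (adjusted p = 0.00301), its neighbor 58751808 by 2.59 ± 0.70 and 58690929 by 2.27 ± 0.65. The next were 58777228 at 2.23 ± 0.92 (mean count 7.97), 58606450 at 2.11 ± 0.69 and 58692503 at 1.97 ± 0.42, from the authors' deposited table. The losses were at 58583385, with -2.60 ± 0.59 (adjusted p = 0.000111), and at 58629916, with -1.98 ± 0.68 (adjusted p = 0.0101), in the authors' deposited table. Both lowered sites were weak, with mean counts of 16.0 and 10.1. On the authors' scaling, no Foxa1 peak with a mean count of at least 20 was called lowered.

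In the Foxa2 window gains and losses were called among both stronger and weaker members, but not evenly. All 6 lowered peaks had a mean count of at least 20, as did 5 of the 9 raised peaks. Among the 22 members of higher mean count, 4 were raised and 4 lowered, the median being -0.41 in the authors' deposited table. The 22 of lower mean count had 5 raised and 2 lowered and a median of 0.28. The mean count, identical in both tables, is averaged over libraries that include those compared, so it is not independent of the change. A group of 7 peaks over 20.8 kb, from 147754176 to 147774981, had a median of -1.01, with 2 lowered and 2 raised.

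Within that Foxa2 group, the peak at 147771350 was lowered in the authors' deposited table (-1.96 ± 0.47, adjusted p = 0.000227), and a raised peak at 147768508, with 1.82 ± 0.55 (adjusted p = 0.00386), lay 2.84 kb away. The strong site at 147760653, with a mean count of 145, had -1.01 ± 0.34 (adjusted p = 0.0089) in the authors' deposited table. The other losses were 147852395 at -1.25 ± 0.47, 147865888 at -0.93 ± 0.31, 147701939 at -0.83 ± 0.30 and 147908214 at -0.83 ± 0.33, all from the authors' deposited table. The 3 sites of highest mean count did not pass the authors' test, but all 3 were lowered with peaks centred on the median of all peaks. By that centred z test, the adjusted p was 3.84e-06 at 147800744, 0.00091 at 147757538 and 2.96e-05 at 147872064. At 147800744, with a mean count of 196, the authors' deposited table gave -0.33 ± 0.18 (adjusted p = 0.121). The values were -0.69 ± 0.35 (adjusted p = 0.0868) at 147757538 and -0.18 ± 0.17 (adjusted p = 0.388) at 147872064 in the authors' deposited table.

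At the high end of the window, raised Foxa2 peaks were 147959779 at 3.39 ± 0.83 (adjusted p = 0.000333), 148001682 at 2.89 ± 0.93 and 148014722 at 2.42 ± 0.57, in the authors' deposited table. These 3 were consecutive peaks over 54.9 kb, and 2 of them had mean counts under 20. The authors' deposited table also gave 2.53 ± 0.68 at 147879199 and 2.00 ± 0.63 at 147731172, both raised.

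Against an absolute log2 fold change of 0.5, the authors' second deposited test, 16 Nkx2-1 peaks were raised and 1 lowered, where 19% of all peaks were raised and 4.64% lowered. The same test left 6 raised and 1 lowered in the Foxa1 window and 5 raised and 1 lowered in the Foxa2 window. Amplification cannot be told apart from site in this comparison: 6 of the 8 amplified libraries were metastases, and all 7 others were lung tumors. The labels also class every amplified library of this comparison as hyperaccessible and every other one of it as hypoaccessible. Preparation batches 1 and 3 held 2 and 6 amplified and 2 and 5 not amplified libraries.

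In CGRP tumors, hardly any of the same sites was called between liver metastases and lung tumors. Of 125 members with an adjusted p, 1 was lowered in liver metastases and 0 were raised by the DESeq2 test of the authors' deposited table, where 0.779% of all tested peaks were lowered and 0.0752% raised. At a share this small, about 1 call among the members is the background, so the count shows no particular loss. At an unadjusted p under 0.05, 2 Nkx2-1 peaks were lower and 0 higher, 4 Foxa1 peaks were lower and 2 higher, and 0 Foxa2 peaks were lower and 1 higher. Together these were 4.76% of members lower and 2.38% higher, near the 6.24% and 3.37% of all peaks. The second deposited test called 0 members in either direction, where it called 0.058% of all peaks lowered. With peaks centred on their median, 0 members were raised and 1 was lowered, where 0.0632% of all peaks were raised and 0.765% lowered.

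Median log2 fold changes, liver over lung, were 0.07 (quartiles -0.11 and 0.33) in the Nkx2-1 window, 0.04 (-0.35 and 0.38) in the Foxa1 window and 0.16 (-0.10 and 0.50) in the Foxa2 window, from the authors' deposited table. The median over all peaks was 0.01. For 29 of 36 Nkx2-1 peaks, the 95% interval of the change (the value with 1.96 SE to either side, not adjusted) lay above a log2 of -1, so that a loss of 2-fold or more was outside it. The same held for 31 of 46 Foxa1 peaks and 38 of 44 Foxa2 peaks, and for 52.5% of all peaks. At the remaining members a loss of that size was not excluded by the interval. At a member of median SE (0.38), an estimate had to exceed 0.74 in size to reach an unadjusted p under 0.05.

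The called CGRP peak was the Foxa1 site at 58583385 (chromosome 12 from 58583135 to 58583635). The authors' deposited table gave it -2.14 ± 0.52 in liver metastases (adjusted p = 0.0107), and -2.60 ± 0.59 in Nfib-amplified CMV libraries. It was the 1 member called in both comparisons. Its summit score was 5.37 in the CGRP pool and 15.6 in the mixed pool, and the CMV pool, mostly of libraries low in enrichment, had no summit within 250 bp. The next lowest Foxa1 value was -1.73 ± 0.61 (adjusted p = 0.178) at 58629916 in the authors' deposited table, a peak that was also lowered in the CMV comparison. The highest was 1.55 ± 0.59 (adjusted p = 0.243) at 58557568.

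The 3 sites of highest mean count in each window were not called in the CGRP comparison. In the Nkx2-1 window, the authors' deposited table gave 0.50 ± 0.30 at 57489049, 0.30 ± 0.29 at 57796562 and -0.04 ± 0.17 at 57637012. In the Foxa1 window it gave -0.34 ± 0.18 at 58647854, -0.07 ± 0.12 at 58647016 and -0.03 ± 0.26 at 58579619. For Foxa2 the authors' deposited table gave -0.01 ± 0.16 at 147800744, -0.50 ± 0.30 at 147757538 and 0.05 ± 0.14 at 147872064. The 95% interval was as narrow as -0.31 to 0.17 at 58647016, and at 147757538 it ran from -1.09 to 0.10 and so took in a 2-fold loss. The lowest Nkx2-1 value was -0.77 ± 0.39 (adjusted p = 0.48) at 57516192 and the lowest Foxa2 value was -0.64 ± 0.35 (adjusted p = 0.547) at 147797250, in the authors' deposited table. Preparation batch 2 held all 7 liver metastases and 7 of the lung tumors, and batch 3 the other 4 lung tumors. No value within a batch can be had from the tables.

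**Figure D3:**
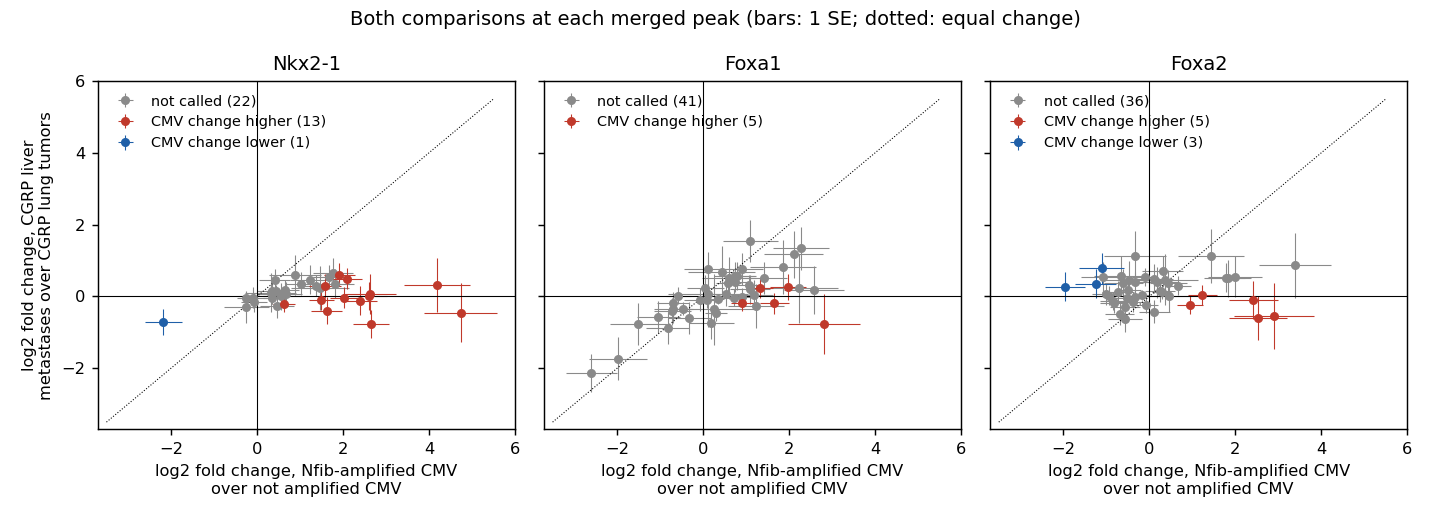
Log2 fold change of each merged peak in Nfib-amplified over not amplified CMV libraries (horizontal axis) against CGRP liver metastases over CGRP lung tumors (vertical axis), with bars of 1 SE and a dotted line of equal change. Colored points are the 13, 5 and 5 peaks with a higher and the 1, 0 and 3 peaks with a lower CMV change in the Nkx2-1, Foxa1 and Foxa2 windows.

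The change at each peak was then contrasted between the comparisons, which share no library, by a two-sided z test adjusted over all peaks. The test takes the errors of the comparisons as independent. This was assumed and not tested, and the mean count of each peak was identical in both. In the Nkx2-1 window, 13 of 36 peaks had a higher change in the CMV comparison and 1 a lower one, where 17.8% of all peaks had a higher and 5.62% a lower one. In the Foxa1 window 5 of 46 were higher and 0 lower, and in the Foxa2 window 5 of 44 were higher and 3 lower. The clearest Nkx2-1 difference was at 57516192, where the CMV change exceeded the CGRP change by 3.43 ± 0.57 (adjusted p = 7.2e-07). It was 1.85 ± 0.44 (adjusted p = 0.000814) at 58543167 in the Foxa1 window. In the Foxa2 window the clearest was the lowered site 147771350, at -2.24 ± 0.62 (adjusted p = 0.00382). The lowered Foxa1 site 58583385 had a difference of -0.46 ± 0.79 (adjusted p = 0.701), so its losses in the comparisons were not told apart. The vector, the tissues and the amplification all differ between the comparisons.

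The authors also called summits on pooled libraries. The CMV pool joined 19 Ad-CMV-Cre libraries, the CGRP pool 14 Ad-CGRP-Cre libraries and the mixed pool 11 and 4 of these kinds. Of the 19 CMV-pool libraries, 15 were the ones marked low in enrichment, so a missing CMV-pool summit does not show a closed site. These 15 were 4 liver metastases and 2 lung tumors with the amplification and 4 liver metastases and 5 lung tumors without it. The other libraries of that pool were 2 Nfib-amplified and 2 not amplified. The score is the authors' −log10 of a q-value and ranks summits within 1 pool only. A summit of all 3 pools lay within 250 bp of the centre of 30 of 36 Nkx2-1 members, 26 of 46 Foxa1 members and 35 of 44 Foxa2 members. The share of all merged peaks with a summit of all 3 pools was not counted. Whether these counts are high or low for merged peaks was thus not tested, and nothing is read from them.

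The highest summit of the Nkx2-1 window was the same site in every pool, at 57489083 in the CMV pool (score 308), 57489049 in the CGRP pool (464) and 57489054 in the mixed pool (493). It ranked above 98.1%, 92.6% and 97.6% of summits of these pools. The highest Foxa1 summit lay at 58579619 in the CMV pool (149), 58579572 in the CGRP pool (582) and 58579611 in the mixed pool (358). The highest Foxa2 summit lay at 147800744 in the CMV pool (171), 147800727 in the CGRP pool (918) and 147800730 in the mixed pool (359). It was above 95.1%, 97.2% and 95.9% of summits in these pools. Each window thus held, in every pool, a site above at least 92.6% of that pool. With 48 to 69 summits per window and pool, the highest of so many tends to rank high, so nothing is read from this.

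The CGRP pool was then read at the sites raised with amplification. A CGRP-pool summit lay at 17 of the 19 raised Nkx2-1 peaks, 14 of the 18 raised Foxa1 peaks and 4 of the 9 raised Foxa2 peaks, against 54.6% of all raised peaks. Differences between the windows in this share were not tested. The rank of that summit varied. The pair with the largest Nkx2-1 gains, 57760357 and 57763980, had CGRP-pool scores of 5.34 and 7.47, above 17.1% and 24.7% of that pool. These were the lowest ranks among raised Nkx2-1 peaks with such a summit, and the highest, at 57489049, was above 92.6%. In the mixed pool the same pair had scores of 160 and 93.7, above 89.0% and 82.3% of that pool. All 9 lowered members held a CGRP-pool summit, as did 97.9% of all lowered peaks. The shares are descriptions, since the pools do not follow the groups compared and differ in vector and tumor site.

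The peaks on either side of each window edge are given with no test. In the authors' deposited table, the first peak beyond each edge of the Nkx2-1 window had a CMV log2 fold change of 0.74 ± 0.20 (at 57446869) and 3.66 ± 0.70 (at 57800482), both raised. The members just inside had 2.62 and 1.91. Beyond the Foxa1 window the values were 0.38 ± 0.44 (at 58486372) and -1.58 ± 0.73 (at 58811164), neither called, and just inside they were 1.09 and 1.85, in the authors' deposited table. Beyond the Foxa2 window they were 0.36 ± 0.73 (at 147682492) and 2.07 ± 0.79 (at 148068214), the second of them raised, and just inside -0.83 and 2.42, in the authors' deposited table.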

How the data were processed

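ATAC-seq was run on tumors and metastases. Per the submitters' processing notes, the tools were MACS2, Bowtie2 and DESeq2 and the build was mm9, with no version given. The deposited summit score was read as −log10 of a q-value from its smallest value, 1.30. Per the file headers, the comparison tables hold DESeq2 columns: the authors' mean normalised count (a signal over libraries), log2 fold change with SE, Wald score, p-value and adjusted p-value. A second set of columns equals, within 4.4e-11, a test for changes beyond 0.5 (log2) in size. Directions rest on the table names, and no source used here gives the authors' covariates or filters. The description of 1 not amplified CMV library does not list the table, so its place in the fit is open. Depth per library is unknown, 0 columns hold values per library, and no new fit was made; intervals cover the authors' SE.

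Members, windows and lists were chosen with earlier results of these data known. Peaks were called at an adjusted p under 0.05. Of the members, 1 had no adjusted p in the CGRP table and 88 of 126 had a mean count of at least 20. The difference of comparisons was a z test, its SE the root of summed squared SEs, with Benjamini-Hochberg adjustment over 113873 peaks. It was tested on simulated data with independent errors. Named peaks are, per window and comparison, all calls up to 6 per direction (beyond that the largest), the 3 of highest mean count and the clearest difference; window edges, CGRP extremes and the other peaks of the calls were added. No annotation of mm9 was used, so gene lists, tissue markers and peak sequences were not analysed here. Values were computed with scipy 1.17.1, pandas 2.3.3 and numpy 2.4.6 under Python 3.11.15, and drawn with matplotlib 3.10.9. Alternatives covered thresholds, adjustment, centring, mean count, window width, summit distance and cluster gap.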

Additional observations from a re-analysis of the deposited data

Results flagged for a closer look

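Each window also held summits that the comparisons do not use, since no merged peak centre lay within 250 bp of them. There were 25 such sites in the Nkx2-1 window, 29 in the Foxa1 window and 39 in the Foxa2 window, counting summits of any pool within 250 bp of the next as 1 site. They were singled out because they are signal in data outside the comparisons. Of these, 16, 26 and 30 lay over 500 bp from any merged centre, and 5, 4 and 5 of those had summits of all 3 pools.

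In the Nkx2-1 window, a site from 57636222 to 57636299, 713 bp from the nearest merged centre, had scores of 77.3 in the CMV pool, 121 in the CGRP pool and 85.9 in the mixed pool. In the Foxa1 window, a site from 58597535 to 58597542, 8908 bp from the nearest merged centre, had 27.7, 47.1 and 61.6 in these pools. A Foxa2 site from 147937785 to 147937797 ranked above 68.0%, 64.5% and 56.3% of summits in these pools. These are, among sites over 500 bp away with summits of all 3 pools, the ones with the highest mean percentile of score in their windows. Why they are not among the merged peaks was not tested, and no source used here gives the merging filter.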

How the results depend on the processing

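Counts in the CMV comparison moved with scaling, test, threshold and window. The Nkx2-1 window had 9 raised and 5 lowered peaks when centred on its chromosome and 2 lowered when centred on all peaks; 35 raised and 2 lowered when widened by 100 kb on each side; and 5 raised in its middle stretch. Foxa1 had 10 raised and 1 lowered at an adjusted p under 0.01, 6 lowered under 0.1, and 6 raised and 1 lowered in the second test. It had 6 raised and 10 lowered when centred on all peaks, 4 and 14 when centred on the chromosome, 0 lowered at a mean count of at least 20, and 8 raised in the middle. Foxa2 had 3 lowered under 0.01, 5 raised and 1 lowered in the second test, 5 raised and 21 lowered when centred on all peaks, and 19 lowered when centred on the chromosome. It had 5 raised at a mean count of at least 20, 14 raised when widened, and 3 raised and 3 lowered in the middle. The lowered CGRP peak of Foxa1 was lost (0) under 0.01, in the second test and at a mean count of at least 20; no other CGRP count moved.

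The difference test gave 8 higher and 2 lower Nkx2-1 peaks with each comparison centred, 2 and 2 for Foxa1, and 1 and 16 for Foxa2. Bonferroni adjustment left 1 higher Nkx2-1 peak and 0 others in each window and direction. Widened, Nkx2-1 had 23 higher; in the middle, 2 higher in each window and 1 lower for Foxa2; at a mean count of at least 20, 3 higher for Foxa1 and for Foxa2. CMV medians centred on all peaks and on the chromosome were 0.53 and 0.28 for Nkx2-1, -0.0094 and -0.26 for Foxa1 (both turned in sign), and -0.74 and -0.68 for Foxa2. In the middle stretch, the Nkx2-1 and Foxa1 medians were 0.45 and 0.11. Centring turned the sign at 58647016, to -0.27 and -0.52. It also did so at 57637012, not called on the authors' scaling, to -0.26 and -0.51, the second of these called lowered. Clusters numbered 2, 2 and 4 at a gap of at most 25 kb, and 16 for Foxa1 and 17 for Foxa2 at 5 kb. All 27 counts of members with a summit stayed within 1.5 times.

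Among named peaks, 22 CMV calls of 148 peak-by-alternative values were lost, 8 were gained and 3 were counted apart as turned in sign. The cause of these moves was not tested beyond the construction of each alternative. No paired analysis was possible because the files hold no values per library, and replicates could not be left out for the same reason. Depth is unknown, so weak members are limited by their SE.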
